A study of Mus musculus with 24 samples.

Results

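The genes described here are the 250 most abundant mouse genes with a Zfp symbol and a number. They were measured in embryonic stem cells and embryoid bodies treated or not treated to deplete the BET protein BRD2. Of 361 table rows with such a symbol, Zfp42 and Zfp352 were left aside, and the remaining 359 were ranked by their mean normalized read count over all 24 libraries. The first 250 were kept and 109 were not, from 35742 genes in all. The members were thus chosen by their measured level, averaged over both treatments and all stages, and the levels are given below as a description. The normalized read count is the number of reads assigned to the gene divided by a size factor for the library, so it is not corrected for gene length.

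Most proteins of this kind carry rows of C2H2 zinc fingers, each a short loop folded around a zinc ion, and a row of fingers can read a stretch of DNA. In mammals the largest class joins the fingers to a KRAB domain, which recruits TRIM28 (KAP1) and through it the histone methyltransferase SETDB1, so that transposable elements and imprinted regions are held silent in embryonic stem cells. Genes of this class lie in clusters that arose by repeated local duplication. Zinc finger genes without KRAB are mostly older single genes with varied roles in transcription, chromatin, RNA binding and the spindle.

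V6.5 mouse embryonic stem cells carried BRD2 fused to a degron, a tag that lets auxin send the protein to the proteasome. BRD2 is a reader of acetylated histones. In the IAA groups, cells received doxycycline (Dox) at 1 µg/ml for 18 h and then the auxin indole-3-acetic acid (IAA) at 500 µM for 24 h. The Dox groups received the same doxycycline and no IAA, so every group carried the tagged line and doxycycline, and none was untreated or untagged. An effect of IAA itself thus cannot be told apart from that of losing BRD2. Each treatment was sampled in cells kept in 2i medium with serum and LIF (mES) and in embryoid bodies, which are aggregates that differentiate without LIF, at day 2 (EBd2), day 3 (EBd3) and day 4 (EBd4). With 3 libraries in each of 8 groups there were 24 libraries. The labels do not say whether the 3 came from separate cultures, so p-values measure the spread between these libraries, which may be technical. They also do not say when in embryoid body culture the IAA was added.

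The libraries held 7819522 to 15732767 reads assigned to genes, and the 250 genes took 1.08% to 1.18% of them. Every EBd4 IAA library was deeper, at 9007143 to 10598075 reads, than every EBd4 Dox library, at 7941180 to 8120480. Brd2 RNA, which the degron does not act on and which therefore does not check the labels, was higher with IAA in every stage (log2 differences of 0.87, 0.65, 0.38 and 0.48 in mES, EBd2, EBd3 and EBd4). The 10 markers of naive pluripotency summed to 51573 to 52489 in mES IAA and 44001 to 45856 in mES Dox libraries, against 4572 to 6464 in embryoid bodies of either treatment. In EBd2 that sum was 6078 to 6311 with IAA and 5599 to 5999 with Dox. Fgf4 alone was higher with IAA there (mean 4523 with IAA and 3279 with Dox). The other markers of the list were lower, among them Nanog (259 and 526), Esrrb (140 and 300) and Dppa3 (19.7 and 68.8). In EBd4 Nanog made up most of the sum (3817 and 4788). Markers of formative epiblast, a later pluripotent state, summed to 1394 to 1594 in mES IAA and 2618 to 2783 in mES Dox, and to 45322 to 46834 in EBd2 IAA and 34443 to 35329 in EBd2 Dox, with no overlap in either stage. The mES gap came from Dnmt3b (mean 320 with IAA and 1047 with Dox) and Dnmt3a (429 and 939). Otx2 (184 and 159), Pou3f1 (91.2 and 70.9) and Foxd3 (308 and 297) were slightly higher with IAA in mES. Tcf15 was at 168 and 176 there, and Fgf5 at 0. Dnmt3b was also the largest part of the EBd2 sum, at 28118 with IAA and 21015 with Dox. The sum of 6 core pluripotency markers was lower at later stages and overlapped between treatments, at 31967 to 33201 in mES IAA and 32497 to 33497 in mES Dox, and 18708 to 19219 in EBd4 IAA and 18780 to 19736 in EBd4 Dox. Pou5f1 and Dppa5a made up most of that sum in mES, and its members did not all follow it. Lin28a averaged 841 in mES IAA and 2111 in mES Dox, against 6742 in EBd2 Dox, and Utf1 637 in mES IAA and 1383 in mES Dox, against 4579 in EBd2 Dox. Of 7 fibroblast markers, which would show feeder cells, Col3a1, Dcn, Lum and Postn were at 0 in mES, and the 7 summed to 15.1 to 32.6 in mES IAA and 46.0 to 50.2 in mES Dox. The 6 primitive endoderm markers summed to 95.7 to 350.1 over all libraries. Their sum was lowest in mES, at 103 to 112 with IAA and 95.7 to 111 with Dox. It was highest in EBd4, at 290 to 336 with IAA and 311 to 350 with Dox. Most of this came from Gata4 (mean 80.7 in Dox mES and 182 in Dox EBd4) and Dab2 (7.73 and 108). Pdgfra (6.86 and 22.7), Gata6 (2.70 and 9.70) and Sox7 (0.579 and 3.79) stayed low, and Sox17 was lower in EBd4 (3.57 and 1.67). Levels of the markers thus moved with IAA as well as with stage, and their part in the differences below was not tested. In bulk RNA, fewer cells of a type and less RNA per cell cannot be told apart. Pairs of libraries of one group were compared by a chi-square of their recovered reads per degree of freedom. The third EBd2 Dox library stood apart (4.49 and 3.77 with the others, which had 1.29 with each other), and so did the first EBd4 IAA library (3.68 and 5.35, against 2.03) and the third EBd3 IAA library (2.24 and 3.34, against 1.57). Counts without them are given below.

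Levels among the 250 genes ran from a mean of 7577 for Zfp106, which encodes an RNA-binding protein, to 89.4 for Zfp618 at rank 250. After Zfp106 came Zfp207 at 3936, whose product BuGZ loads a spindle checkpoint protein, then Zfp445 at 2480, Zfp57 at 2042, Zfp568 at 2034 and Zfp638 at 1890. The median was 263, and 27 genes were at 1000 or more. Close to the limit, Zfp977 (92.6), Zfp959 (90.9) and Zfp618 (89.4) were the last kept, and Zfp189 (87.9), Zfp773 (87.7) and Zfp943 (87.6) the first left out. Per kb of annotated exon, Zfp106 (727), Zfp207 (591) and Zfp57 (539) had the highest mean normalized counts.

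The gene type of all 250 was protein coding in GENCODE M21 on mm10, and 249 had a coding transcript there. A KRAB box A was found by a sequence profile in the translated coding sequence of 140 and not in 109, and Zfp267, the one without a coding transcript, could not be searched. Genes with a KRAB box had a median of 12 C2H2 fingers and those without one a median of 7, and the largest number, 36, was in Zfp142. The finger pattern was not found in 6 members, among them Zfp36, which binds mRNA through CCCH fingers. Of the 140 KRAB genes, 104 had another of the 250 within 200 kb. Altogether 135 genes lay in such clusters and 115 did not, and chromosome 7 carried 65 and chromosome 17 carried 30. The median level was 219 for KRAB genes and 438 for the others, although these values are not per length.

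Across the 8 groups the ratio of the highest to the lowest group mean had a median of 1.84. It was under 1.5 for 56 genes, with Zfp106 the most even at 1.09, and over 4 for 24. The 10 genes with a ratio over 10 were Zfp365 (182), Zfp608 (99.3), Zfp618 (93.8), Zfp467 (27.3), Zfp423 (24.2), Zfp651 (22.1), Zfp819 (11.1), Zfp57 (11.04), Zfp704 (10.9) and Zfp296 (10.2). The RNA level of most of the 250 genes thus stayed within a 4-fold range, and a few genes were close to absent from some groups.

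IAA was compared with Dox separately in each stage, on log2(normalized count + 1) with limma fitted across all genes. P-values had Benjamini-Hochberg adjustment, and a call is an adjusted p below 0.05. All 250 genes passed the filter on low values in every fit. In mES, 69 of 250 rose and 42 fell with IAA, where 17.3% of all genes tested rose and 20.1% fell. Genes with a mean in the range of the 250 were called more often than all genes, and of these 29.5% rose and 27.8% fell in mES. Set beside genes of like abundance, about as many of the 250 rose and fewer fell, a difference that was not tested. With every library thinned to the smallest total of reads, in place of the authors' size factors, 48 rose and 59 fell in mES, so the balance of rises and falls depended on the scaling.

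In EBd2, 42 genes rose and 42 fell, beside 13.4% and 16.7% of all genes and 24.7% and 19.7% of genes of like abundance. Without the third EBd2 Dox library, 69 rose and 48 fell. In EBd3, 14 rose and 11 fell, beside 4.22% and 6.32% of all genes and 8.01% and 9.29% of genes of like abundance. Without one library of EBd3 the number that rose ranged from 6 to 14, with 6 when Dox 1, Dox 2 or IAA 1 was left out and 9 without Dox 3, and the number that fell was 7 without Dox 1. Without the third EBd3 IAA library 14 rose and 14 fell. In EBd4, 7 rose and 22 fell, beside 4.69% and 5.57% of all genes and 8.80% and 9.13% of genes of like abundance. EBd4 counts also changed when a single library was left out. The number that fell was 5 without Dox 1 or IAA 2, 7 without Dox 2, 9 without IAA 1 and 10 without Dox 3, and the number that rose was 4 without Dox 1, Dox 2, IAA 1 or IAA 2. The median log2 difference of the 250 was 0.03 in mES, EBd2 and EBd3 and -0.03 in EBd4, so the median of the set moved little in any stage.

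**Figure D1:**
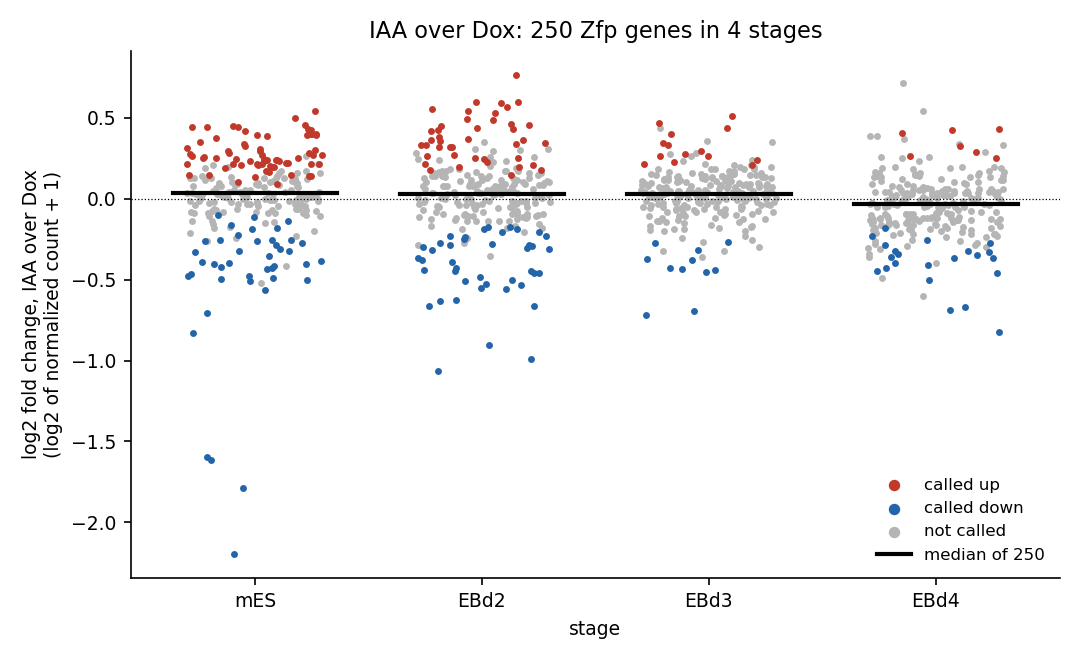
Each point is one of the 250 genes, with the stage on the horizontal axis and the log2 difference of IAA over Dox on the vertical axis; red points rose, blue points fell, grey points were not called and the black bar is the median. The medians lie at 0.03, 0.03, 0.03 and -0.03, and the largest falls, to -2.20 for Zfp618, are in mES.

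Over the 4 stages, 149 of the 250 were called at least once, beside 59.2% of all genes tested in all 4, and 101 were never called. Another count, of genes that rose in one stage and fell in another, was 11, beside 5.67% of all genes. Zfp317 and Zfp346 rose in all 4 stages (0.647% of all genes did), and Zfp532, Zfp945 and Zfp2 fell in all 4 (0.948%). The 4 stages share no library.

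The 300 bases from 250 before to 50 after the annotated start are shown for Zfp317, Zfp346, Zfp945 and Zfp2, to give promoters of genes that moved the same way throughout; that of Zfp532 is not shown here. They are from RefSeq on GRCm38.p6, on the gene's strand, and capitals mark matches to 8 short promoter motifs searched on both strands. The windows are chr9:19621841-19622140 (+) for Zfp317, chr13:55105059-55105358 (+) for Zfp346, chr17:22867085-22867384 (-) for Zfp945 and chr11:50916127-50916426 (-) for Zfp2.
Zfp317: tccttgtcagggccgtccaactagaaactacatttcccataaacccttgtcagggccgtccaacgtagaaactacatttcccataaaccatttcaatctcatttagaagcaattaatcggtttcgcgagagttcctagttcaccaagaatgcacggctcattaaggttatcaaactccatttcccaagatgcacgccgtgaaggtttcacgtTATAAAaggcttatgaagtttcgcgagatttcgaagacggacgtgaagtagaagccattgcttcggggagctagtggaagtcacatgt
Zfp346: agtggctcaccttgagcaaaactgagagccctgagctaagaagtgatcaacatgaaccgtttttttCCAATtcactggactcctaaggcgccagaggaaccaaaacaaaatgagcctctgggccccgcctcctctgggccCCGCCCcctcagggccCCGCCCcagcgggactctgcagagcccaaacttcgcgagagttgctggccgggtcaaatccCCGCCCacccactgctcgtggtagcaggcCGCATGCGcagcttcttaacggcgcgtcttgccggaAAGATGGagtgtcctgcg
Zfp945: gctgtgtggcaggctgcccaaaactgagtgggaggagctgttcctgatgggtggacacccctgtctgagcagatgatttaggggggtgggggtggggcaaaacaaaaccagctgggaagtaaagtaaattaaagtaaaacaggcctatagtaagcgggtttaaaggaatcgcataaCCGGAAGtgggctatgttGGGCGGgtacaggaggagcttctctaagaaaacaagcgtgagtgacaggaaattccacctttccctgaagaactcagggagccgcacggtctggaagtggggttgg
Zfp2: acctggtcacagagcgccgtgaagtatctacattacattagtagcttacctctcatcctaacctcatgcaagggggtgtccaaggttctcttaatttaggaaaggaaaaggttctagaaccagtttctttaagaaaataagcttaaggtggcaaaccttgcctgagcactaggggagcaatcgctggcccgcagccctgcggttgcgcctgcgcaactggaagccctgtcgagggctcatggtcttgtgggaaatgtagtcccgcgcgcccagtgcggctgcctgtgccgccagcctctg
The Zfp317 window held a TATAAA match beginning at -38 from the start, and 16 CG dinucleotides. The Zfp346 window held CCAAT at -184, the GC box GGGCGG on the opposite strand at -110, -94 and -33, the NRF1 core GCATGCG at -3 and, overlapping it on the opposite strand, at -4, the YY1 core AAGATGG at 33, and 18 CG dinucleotides. The Zfp945 window held the ETS core CCGGAAG at -74, GGGCGG at -56 and 7 CG dinucleotides. The Zfp2 window held none of the 8 and 13 CG dinucleotides, which says only that these letters are not in this window. Among the promoters shown, the GC box was thus found in one gene that rose and in one that fell. A match is a run of letters and was not tested as a binding site.

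Zfp317 (chr9:19622102-19649731, +; KRAB, 13 fingers) had 785, 743 and 802 normalized counts in the mES IAA libraries, against 601, 572 and 525 in the mES Dox libraries. It had 847, 891 and 883 in EBd4 IAA and 702, 690.3 and 701 in EBd4 Dox. In both stages every IAA library was above every Dox library. The log2 difference was 0.46 (SE 0.049, adjusted p = 5.67e-10) in mES and 0.32 (SE 0.057, adjusted p = 0.00241) in EBd4, with 0.37 and 0.27 in the stages between.

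Zfp346 (chr13:55105311-55134825, +) encodes a protein whose 4 fingers bind double-stranded RNA. It had 746, 777 and 733 in EBd2 IAA and 524, 557 and 563 in EBd2 Dox, and 658, 644 and 585 in EBd4 IAA and 521, 519.6 and 543 in EBd4 Dox. Its log2 differences were 0.39, 0.46, 0.35 and 0.25 from mES to EBd4, with adjusted p of 4.8e-08, 4.94e-06, 0.00113 and 0.0269. The EBd4 value is the least firm of them. It was not called without Dox 1, Dox 2, IAA 1 or IAA 2 (adjusted p = 0.0883 to 0.126), nor with reads thinned to an equal depth (0.066).

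Zfp532 (chr18:65579912-65689443, +) has 10 fingers and associates with ZFP592, ZFP687 and ZMYND8. It had 584, 563 and 547 in EBd2 IAA, against 1181, 1143 and 1051 in EBd2 Dox, and the libraries lay far apart. In mES it had 276, 243 and 239 with IAA and 318, 333 and 374 with Dox. The log2 difference was -0.99 (SE 0.059, adjusted p = 1.51e-10) in EBd2, and -0.43, -0.43 and -0.69 in mES, EBd3 and EBd4.

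Zfp2 (chr11:50898712-50916165, -; 13 fingers) had 179.8, 153 and 138 in mES IAA and 295, 265 and 273 in mES Dox, and the fall was largest in mES, with log2 differences of -0.83, -0.46, -0.45 and -0.32. Zfp945 (chr17:22846697-22867134, -; KRAB, 18 fingers) had 301, 339 and 325 in mES IAA and 419, 476 and 476 in mES Dox, with log2 differences of -0.50, -0.37, -0.27 and -0.36. The EBd4 call of Zfp2 was not made without Dox 1, Dox 2, Dox 3, IAA 1 or IAA 2 (adjusted p = 0.0559 to 0.136). That of Zfp945 was not made without Dox 1, Dox 2 or IAA 2 (adjusted p = 0.0762 to 0.087), nor its EBd3 call without Dox 1 (adjusted p = 0.0834). Of the 5 genes, Zfp317 and Zfp532 were called in every stage whichever library was left out, and of the 3 that fell only Zfp532 was called in all 4 by DESeq2.

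**Figure D2:**
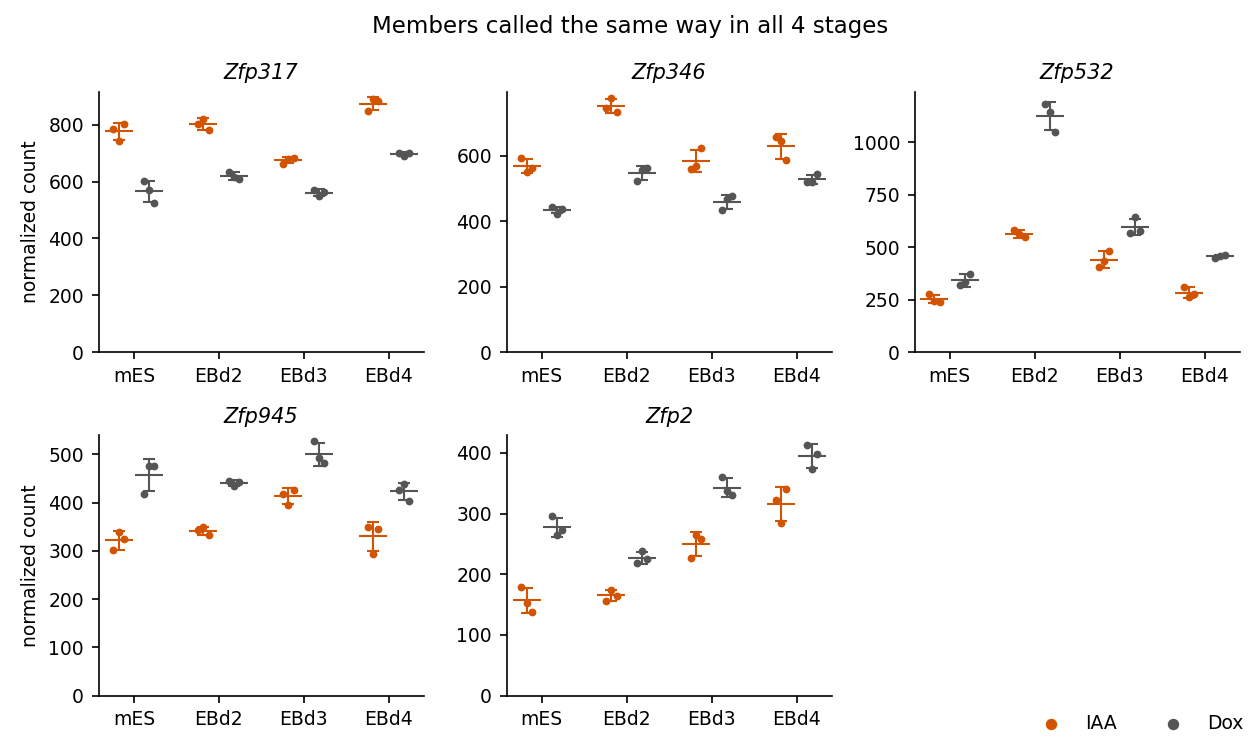
The vertical axes give the normalized count of the 5 genes called the same way in all 4 stages, and points are the 3 libraries of each group, IAA left of Dox in each stage, with bars for mean ± SD. IAA points of Zfp317 and Zfp346 lie above their Dox points and those of Zfp532, Zfp945 and Zfp2 below, with the widest gap for Zfp532 in EBd2, where the means are 564 and 1125.

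Zfp57 and Zfp445 encode KRAB proteins that keep imprinted regions methylated, and ZFP568 silences the placental promoter of Igf2. All 3 rose in mES, Zfp57 by 0.40, Zfp568 by 0.15 and Zfp445 by 0.10 on the log2 scale. In EBd2 Zfp57 and Zfp568 fell, and in EBd3 and EBd4 none was called. Of all genes tested, 17.3% rose in mES and 16.7% fell in EBd2, and genes of like abundance were called more often. Zfp57 had 6555, 6091 and 6559.7 in mES IAA and 4763, 4849.9 and 4929.8 in mES Dox, whereas it had 910.3, 828 and 981 in EBd2 IAA and 1367, 1276 and 1266 in EBd2 Dox. The libraries did not overlap in either stage, with IAA above Dox in mES and below it in EBd2. The mES call of Zfp445 was not made without Dox 2 (adjusted p = 0.0644). The log2 difference of Zfp57 was 0.40 (SE 0.025, adjusted p = 5.54e-16) in mES and -0.53 (SE 0.06, adjusted p = 1.2e-06) in EBd2, and the EBd2 effect minus the mES effect was -0.93 (SE 0.088, adjusted p = 1.42e-09).

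Among KRAB genes known for silencing retroelements, Zfp809, which binds the primer binding site of retroviruses, rose in mES (0.22) and EBd2 (0.18). The mES call was not made without IAA 3 (adjusted p = 0.12), nor the EBd2 call without Dox 1, Dox 2, IAA 2 or IAA 3 (adjusted p = 0.11 to 0.216). Zfp819 fell in both, with log2 differences of -0.42 and -0.90, and had 80.4, 66.8 and 63.0 in EBd2 IAA and 168, 168 and 79.7 in EBd2 Dox. The third EBd2 Dox library lay among the IAA libraries, and without it the EBd2 difference was -1.26. Zfp932 was called in no stage and Zfp708 is below rank 250. No member of the list was called in EBd3 or EBd4. Of all genes 17.3% rose and 20.1% fell in mES, and 13.4% rose and 16.7% fell in EBd2.

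Of 9 members linked to the pluripotent state, 5 rose and 2 fell in mES, beside 17.3% and 20.1% of all genes and 29.5% and 27.8% of genes of like abundance. Zfp516 (0.32), Zfp296 (0.29), Zfp207 (0.21), Zfp217 (0.20) and Zfp143 (0.14) rose, and Zfp462 (-0.51), which works with the H3K9 methyltransferases G9a and GLP, and Zfp219 (-0.26) fell. Zfp462 had 932, 946 and 887 in mES IAA and 1268, 1343 and 1322 in mES Dox, with no overlap. In EBd2 Zfp207 and Zfp217 rose and Zfp296, which helps reprogramming to pluripotency, fell (-0.28). The call of Zfp143 in mES was not made without Dox 2, Dox 3 or IAA 2 (adjusted p = 0.069 to 0.199), nor that of Zfp207 in EBd2 without Dox 1, IAA 1 or IAA 2 (adjusted p = 0.054 to 0.0777). None was called in EBd3, and Zfp516 alone rose in EBd4 (0.41, SE 0.078, adjusted p = 0.00416). Zfp281 and Zfp706 were called in no stage. The span of Zfp219 overlaps Arhgef40 and that of Zfp296 overlaps Gemin7, each on the other strand. Overlap of exons was not checked, so some of their reads may not have been told apart.

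Of 8 members that act on RNA or translation, 3 rose and 1 fell in mES, again beside 17.3% and 20.1% of all genes. Zfp598, a ubiquitin ligase of stalled ribosomes, rose in mES (0.34) and EBd2 (0.21). Zfp326, part of the DBIRD complex that links elongation with splicing, fell in mES (-0.33) and EBd2 (-0.19). Zfp326 was not called in EBd2 without Dox 1, Dox 2, IAA 1, IAA 2 or IAA 3 (adjusted p = 0.0853 to 0.261). Zfp830 was called only in mES, where it rose (0.24). Zfp638 fell in EBd4 (-0.18), a call not made without any one of the 6 libraries (adjusted p = 0.0511 to 0.17), and Zfp36, Zfp622 and Zfp106 were called in no stage. Zfp346 belongs here too, and made up the rise in EBd3 and in EBd4.

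Of 10 members that are adaptors of chromatin complexes, 3 rose and 3 fell in mES, 1 rose and 5 fell in EBd2, 1 rose and 2 fell in EBd3, and none rose and 2 fell in EBd4. Of all genes 13.4% rose and 16.7% fell in EBd2, and 24.7% and 19.7% of those of like abundance. The shares of all genes were 17.3% and 20.1% in mES, 4.22% and 6.32% in EBd3, and 4.69% and 5.57% in EBd4. Without the third EBd2 Dox library 2 adaptors rose and 6 fell in EBd2. Zfp532 and Zfp827 led the falls. Zfp827, whose human counterpart brings the NuRD complex to telomeres, had 226, 186 and 217 in EBd3 IAA and 374, 338 and 305 in EBd3 Dox, a log2 difference of -0.69 (SE 0.10, adjusted p = 1.31e-05). It also fell in EBd2 (-0.63) and EBd4 (-0.46). Its mES difference of -0.14 was not called. The span of Zfp335, part of an H3K4 methyltransferase complex, overlaps Pcif1 on the other strand, and some of their reads may not have been told apart. Zfp335 rose in mES (0.25) and fell in EBd2 (-0.24). Zfp644, a G9a and GLP partner, and Zfp609, which associates with the cohesin loader, fell in both (for Zfp644 -0.13 and -0.18, for Zfp609 -0.10 and -0.23). Zfp410, an activator of Chd4, rose in both (0.23 and 0.18). Several of these smaller calls were lost when a single library was left out. In EBd2 they were not made for Zfp335 without Dox 2, IAA 2 or IAA 3 (adjusted p = 0.068 to 0.0965), for Zfp644 without Dox 1, IAA 2 or IAA 3 (adjusted p = 0.0558 to 0.0701) or for Zfp410 without Dox 1, Dox 2, IAA 1, IAA 2 or IAA 3 (adjusted p = 0.0804 to 0.169). In mES they were not made for Zfp644 without Dox 1 or IAA 3 (adjusted p = 0.0816 to 0.112) or for Zfp609 without Dox 1, Dox 2, Dox 3 or IAA 1 (adjusted p = 0.0532 to 0.0961). Zfp592 was the rise in EBd3 (0.23), not called without Dox 1, Dox 2, Dox 3 or IAA 1 (adjusted p = 0.0539 to 0.197).

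The list of developmental genes has 4 members. Of all genes 20.1% fell in mES, 13.4% rose and 16.7% fell in EBd2, and 5.57% fell in EBd4. Zfp423, a partner of EBF factors in neural and fat cell precursors, had 22.5, 24.7 and 21.1 in mES IAA and 71.6, 73.0 and 70.6 in mES Dox, so that every IAA library was far below every Dox library. In EBd2 the order turned, with 554, 529.5 and 567 in EBd2 IAA and 478, 425 and 389 in EBd2 Dox. Its log2 difference was -1.62 (SE 0.17, adjusted p = 2.57e-10) in mES and 0.36 (SE 0.072, adjusted p = 0.000732) in EBd2, and -0.37 in EBd4. The EBd4 call of Zfp423 was not made without Dox 1, Dox 2, Dox 3, IAA 1 or IAA 2 (adjusted p = 0.0543 to 0.141). Zfp24 fell in EBd2 (-0.19), a call not made without Dox 2, Dox 3, IAA 1 or IAA 3 (adjusted p = 0.0507 to 0.0834), and Zfp608 and Zfp292 were called in no stage. Zfp521, Zfp703, Zfp503 and Zfp536, also on this list, are below rank 250.

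The largest differences in mES were falls. Zfp651, the mouse counterpart of human ZBTB47, had 11.7, 14.1 and 9.03 in mES IAA and 35.3, 46.0 and 45.5 in mES Dox, a log2 difference of -1.79 (SE 0.23, adjusted p = 4.65e-08). Its span overlaps E530011L22Rik on the other strand. Strandedness is not given in the sources used here and overlap of exons was not checked, so some of their reads may not have been told apart. Zfp618, which works with UHRF2 at hydroxymethylated cytosine, had only 1.95, 1.76 and 2.26 in mES IAA and 12.7, 15.6 and 10.2 in mES Dox (-2.20), and Zfp365 likewise stayed under 20 (-1.60). At such counts the pseudocount of 1 pulls the log2 difference toward 0. Zfp414 (log2 difference -0.71), Zfp948 (-0.56) and Zfp980 (-0.50) completed the larger falls, next to Zfp423, Zfp2, Zfp462 and Zfp945. The rises were smaller in size, with Zfp408 (0.54, SE 0.072, adjusted p = 6.15e-08), Zfp12 (0.50), Zfp317, Zfp623 (0.45), Zfp202 (0.45), Zfp574 (0.45), Zfp341 (0.44) and Zfp961 (0.43) at the top. Zfp408 had 321, 284 and 308 in mES IAA and 191, 226 and 209 in mES Dox.

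In EBd2, Zfp414 fell furthest. It had 161, 126 and 123 in EBd2 IAA and 294, 284 and 276 in EBd2 Dox, a log2 difference of -1.06 (SE 0.10, adjusted p = 6.28e-08), and the libraries did not overlap. After it and Zfp532 came Zfp819, Zfp981 (-0.66), Zfp600 (-0.66), Zfp827, Zfp459 (-0.63), Zfp229 (-0.56) and Zfp982 (-0.55). Of the genes that rose, Zfp113 had 191, 212 and 179.6 in EBd2 IAA and 111, 94.5 and 139 in EBd2 Dox (0.77, SE 0.12, adjusted p = 5.03e-05). It was followed by Zfp467, a factor of fat and bone cell fate (0.60), Zfp444 (0.60), Zfp318 (0.59), Zfp60 (0.56), Zfp90 (0.54), Zfp661 (0.53) and Zfp358 (0.49). All of these calls were also made without the third EBd2 Dox library. In the same libraries the 5 neuroectoderm markers summed to 2313 to 2350 with IAA and 1182 to 1228 with Dox. In mES that sum was already 2617 to 2750 with IAA and 2284 to 2445 with Dox, largely from Nes and Tubb3. The 5 markers of 2-cell-like cells summed to 203 to 268 with IAA and 394 to 482 with Dox in EBd2. The part of either list in these calls was not tested.

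In EBd3 the differences were smaller. Zfp398 (0.51, SE 0.12, adjusted p = 0.00513) rose most, with 135, 149 and 141 in EBd3 IAA and 99.7, 95.8 and 102 in EBd3 Dox, followed by Zfp526 (0.47), Zfp647 (0.44), Zfp707 (0.40), Zfp346, Zfp12 (0.33), Zfp318 (0.29) and Zfp866 (0.27). The span of Zfp866 overlaps Atp13a1, and some of their reads may not have been told apart. Zfp618 (-0.72, SE 0.12, adjusted p = 0.000233) and Zfp827 fell most, followed by Zfp2, Zfp941 (-0.44), Zfp532, Zfp414 (-0.43), Zfp651 (-0.38) and Zfp407 (-0.37). Several of these calls were lost when a single library was left out. Zfp12 was not called without Dox 1, Dox 2, IAA 1 or IAA 2 (adjusted p = 0.0535 to 0.0716), Zfp526 without Dox 1, Dox 2, Dox 3, IAA 1 or IAA 3 (adjusted p = 0.0521 to 0.265), Zfp647 without Dox 1, Dox 3, IAA 1 or IAA 3 (adjusted p = 0.0526 to 0.29) and Zfp707 without any one of the 6 libraries (adjusted p = 0.0543 to 0.161). Among the falls, Zfp407 was not called without Dox 1, Dox 3, IAA 1 or IAA 2 (adjusted p = 0.0565 to 0.155), Zfp651 without Dox 1 (adjusted p = 0.116) and Zfp941 without Dox 1, Dox 2 or IAA 2 (adjusted p = 0.0846 to 0.121).

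In EBd4 all 7 genes that rose had log2 differences of 0.43 or less. They were Zfp982 (0.43), Zfp655 (0.43), Zfp516, Zfp317, Zfp652 (0.29), Zfp185 (0.27) and Zfp346. Zfp618 fell furthest, with 105, 114 and 94.7 in EBd4 IAA and 197, 204 and 159 in EBd4 Dox (-0.82, SE 0.13, adjusted p = 0.00109). Zfp532, Zfp771 (-0.67), Zfp719 (-0.50), Zfp827, Zfp704 (-0.45), Zfp239 (-0.43) and Zfp768 (-0.41) followed. Again many calls were lost when a single library was left out, for some of them whichever library it was. Zfp982 was not called without any one of the 6 libraries (adjusted p = 0.0613 to 0.0923) and Zfp185 without Dox 1, Dox 2, Dox 3, IAA 1 or IAA 2 (adjusted p = 0.0621 to 0.171). Among the falls, Zfp239 was not called without any one of the 6 libraries (adjusted p = 0.0647 to 0.208), Zfp719 without Dox 1, Dox 3, IAA 2 or IAA 3 (adjusted p = 0.0517 to 0.17) and Zfp768 without Dox 1, Dox 2, Dox 3, IAA 1 or IAA 2 (adjusted p = 0.0613 to 0.153). Primitive streak markers, which summed to 123 to 2424 in EBd4 IAA and 1406 to 3390 in EBd4 Dox libraries, differed widely between libraries of one group, and their part in these calls was not tested.

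The IAA effect in each embryoid body stage was also compared with that in mES as an interaction over all 24 libraries. These 3 comparisons share the mES libraries. In EBd2, 21 genes had a higher and 25 a lower effect than in mES, beside 9.73% and 6.61% of all genes. In EBd3 the numbers were 15 and 12, beside 7.15% and 4.52%, and in EBd4 19 and 33, beside 9.68% and 7.08%. Without the third EBd2 Dox library the EBd2 numbers were 31 and 26. In EBd3 the number with a lower effect was 7 without mES Dox 2 or mES IAA 3 and 5 without EBd3 Dox 1, and the number with a higher effect was 9 without mES Dox 3, mES IAA 2, EBd3 Dox 2 or EBd3 IAA 3. Zfp651, Zfp618 and Zfp423, which fell most in mES, were the 3 with the largest higher effects in EBd2 and EBd3. In EBd2 the differences were 2.10 (SE 0.23, adjusted p = 1.81e-08) for Zfp618, 1.97 (SE 0.14, adjusted p = 3.34e-12) for Zfp423 and 1.35 (SE 0.18, adjusted p = 9.54e-07) for Zfp651.

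The sign of the difference also varied with stage for Zfp516 and Zfp981. Zfp516, a brown fat factor, had 141, 144 and 166 in EBd2 IAA and 163, 172 and 219.6 in EBd2 Dox (-0.29, SE 0.11, adjusted p = 0.0544), which was not called, and 806, 726 and 665 in EBd4 IAA and 511, 556 and 587 in EBd4 Dox. The EBd2 effect minus the mES effect was -0.61 (SE 0.15, adjusted p = 0.00409). For Zfp981 the EBd4 effect minus the mES effect was 0.82 (SE 0.16, adjusted p = 0.000277), with log2 differences of -0.48 in mES and 0.34 in EBd4, the second of which was not called. Among genes with a lower effect in EBd4 than in mES, Zfp428 (-0.69), Zfp426 (-0.62), Zfp111 (-0.59) and Zfp623 (-0.57) led.

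**Figure D3:**
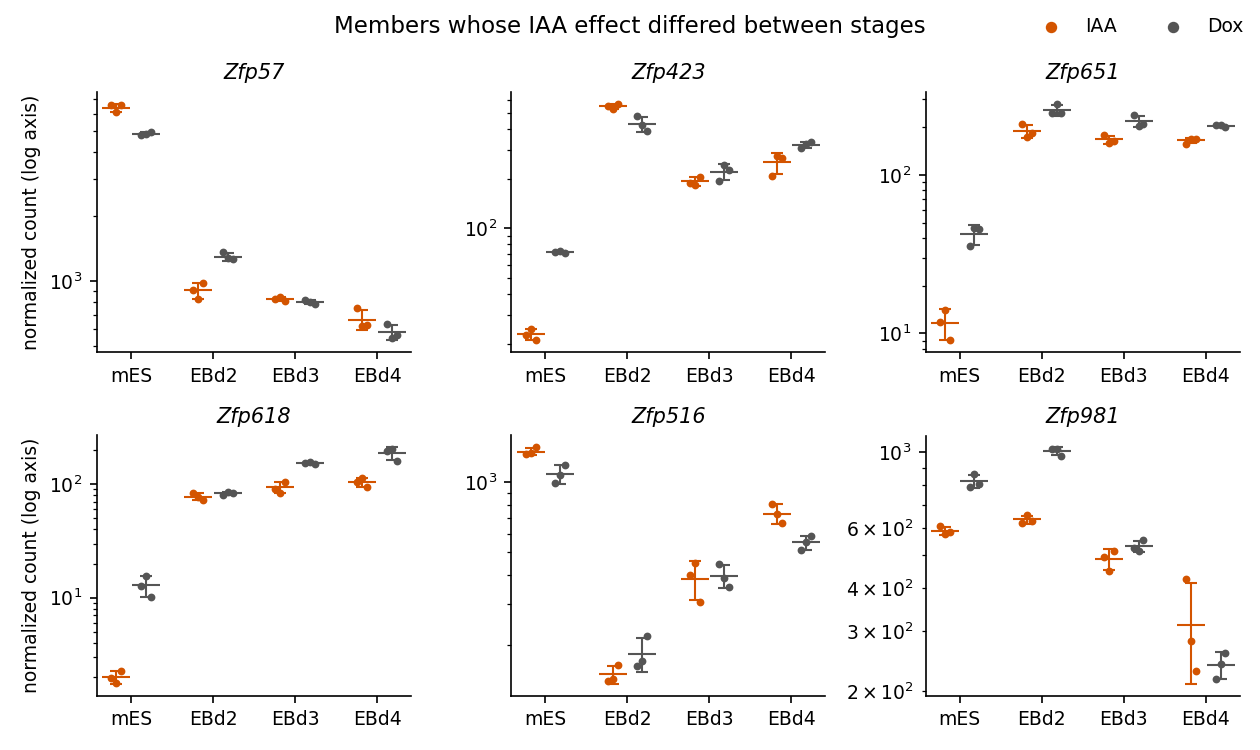
The vertical axes give the normalized count on a log scale for 6 genes whose IAA effect differed between stages, with points for libraries, IAA left of Dox in each stage, and bars for mean ± SD. Zfp57 lies higher with IAA in mES and lower in EBd2, and Zfp423, Zfp651 and Zfp618 have their widest gaps in mES, where Zfp423 averages 22.7 with IAA and 71.7 with Dox.

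By class, 33 of 140 KRAB genes rose and 22 fell in mES, and 36 of 109 genes without KRAB rose and 20 fell, beside 17.3% and 20.1% of all genes. In EBd2 the KRAB genes divided into 19 that rose and 23 that fell, and the others into 23 and 19, beside 13.4% and 16.7% of all genes. Without the third EBd2 Dox library the counts were 37 and 24 for KRAB genes and 32 and 24 for the others. In EBd3 the counts were 9 and 3 for KRAB genes and 5 and 8 for the others, beside 4.22% and 6.32% of all genes. In EBd4 they were 3 and 4 for KRAB genes against 4 and 18 for the others, so that most of the EBd4 falls were genes without a KRAB box. The number of falls there was unsteady. With one EBd4 library left out, 5 to 16 genes without KRAB and 0 to 3 KRAB genes fell, and with DESeq2 6 and 1 did. Of all genes 4.69% rose and 5.57% fell in EBd4, and of those of like abundance 9.13% fell. Of the 140 KRAB genes 71 were never called and of the 109 others 29, beside 7436 of the 18244 genes tested in all 4 stages. The genes without KRAB were the more abundant class, and genes in the members' range of levels were called more often than all genes. Promoters are described by class in the same way. Among 207 members matched to a RefSeq promoter, the median number of CG dinucleotides was 10 for KRAB genes and 19.5 for the others, against 7 over all 27025 promoters. Members that rose in mES had a median of 17.5 and those that fell 10, and in EBd2 the medians were 17 and 10. In EBd3 they were 21 and 13, with 9 promoters each. In EBd4 they were 17 over 6 rises and 17.5 over 18 falls, so no gap was seen there. So few promoters, with most EBd4 falls lacking KRAB, cannot show whether the gap was absent.

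CCAAT, searched as CCAAT on both strands, was in 60.8% of KRAB promoters and 38.4% of the others, against 51.7% of all member promoters and 38.0% of all promoters. The GC box GGGCGG was in 37.5% of KRAB promoters, 61.6% of the others, 47.8% of member promoters and 35.9% of all. The ETS core CCGGAAG was in 20.8% of member promoters and 9.14% of all, the YY1 core AAGATGG in 10.6% and 6.46%, the NRF1 core GCATGCG in 7.73% and 3.65%, ACTACAA in 5.80% and 3.44%, and the CRE TGACGTC in 4.83% and 3.30%. TATAAA was the exception, in 7.25% of member promoters and 14.2% of all. These shares describe letters in the window and no difference in motif was tested. Members spanning under 15 kb numbered 93, of which 29 rose and 8 fell in mES, whereas of 38 spanning over 40 kb 7 rose and 10 fell. Over all genes the shares were 13.2% and 14.2% under 15 kb and 21.1% and 28.1% over 40 kb.

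**Figure D4:**
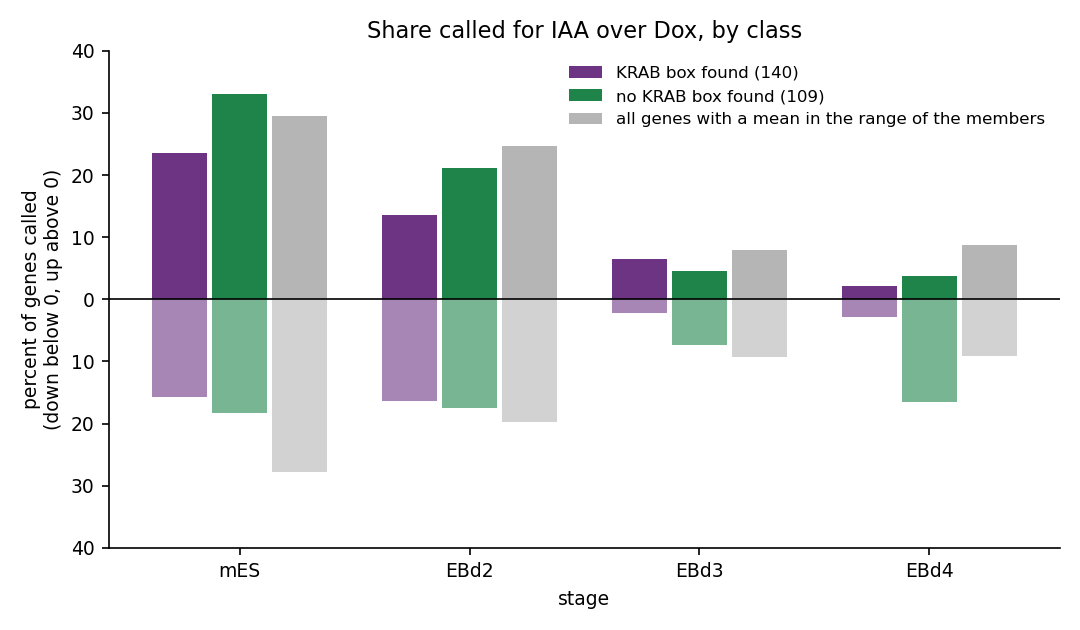
Bars give the percent of genes called with IAA in each stage, rises above 0 and falls below it, for 140 KRAB genes, 109 genes without a KRAB box and all genes with a mean in the range of the 250. In EBd4 the bar below 0 is longest for the genes without KRAB, of which 18 of 109 fell, against 4 of 140 KRAB genes.

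Blocks of 5 or more neighbouring members numbered 8 and held 58 of the 250, and a block on chromosome 4 (chr4:147492417-147848366, GENCODE M21 on mm10) is described because most of its genes moved together, a choice made after the values were seen. It holds 6 KRAB genes, Zfp982, Zfp985, Zfp979, Zfp534, Zfp984 and Zfp933. Genes of such a block can be near copies of each other, and how reads that map to several places were treated is not given in the sources used here, so the split of reads between them is uncertain. In mES Zfp982 (-0.28), Zfp985 (-0.32), Zfp979 (-0.22) and Zfp534 (-0.31) fell, and in EBd2 the same 4 fell (-0.55, -0.44, -0.51 and -0.48). Of all genes 20.1% fell in mES and 16.7% in EBd2. Zfp984 (0.0054 in mES and -0.18 in EBd2) and Zfp933 (0.023 and 0.11) were not called. Zfp534 had 487, 484 and 446 in EBd2 IAA and 694, 662 and 627 in EBd2 Dox, with no overlap. None of the 6 was called in EBd3, and in EBd4 Zfp982 rose, with 144, 134 and 143 in EBd4 IAA and 102, 107 and 103 in EBd4 Dox, a call not made without any one of the 6 libraries (adjusted p = 0.0613 to 0.0923). The mES call of Zfp982 was not made without IAA 1 (adjusted p = 0.0503).

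Other blocks moved less evenly. Of the 13 members in the block that begins with Zfp84 on chromosome 7, 5 rose and none fell in mES, where 17.3% of all genes rose and 20.1% fell. The chromosome 7 block of 7 members that begins with Zfp553 had 3 rises in EBd2 (5 without the third EBd2 Dox library) and 3 falls in EBd4 (1 to 3 with one EBd4 library left out). Of all genes 13.4% rose in EBd2 and 5.57% fell in EBd4. The chromosome 13 block that begins with Zfp953, also of 7 members, had 3 falls in mES, beside 20.1% of all genes. These too were picked after their values were seen.

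**Figure D5:**
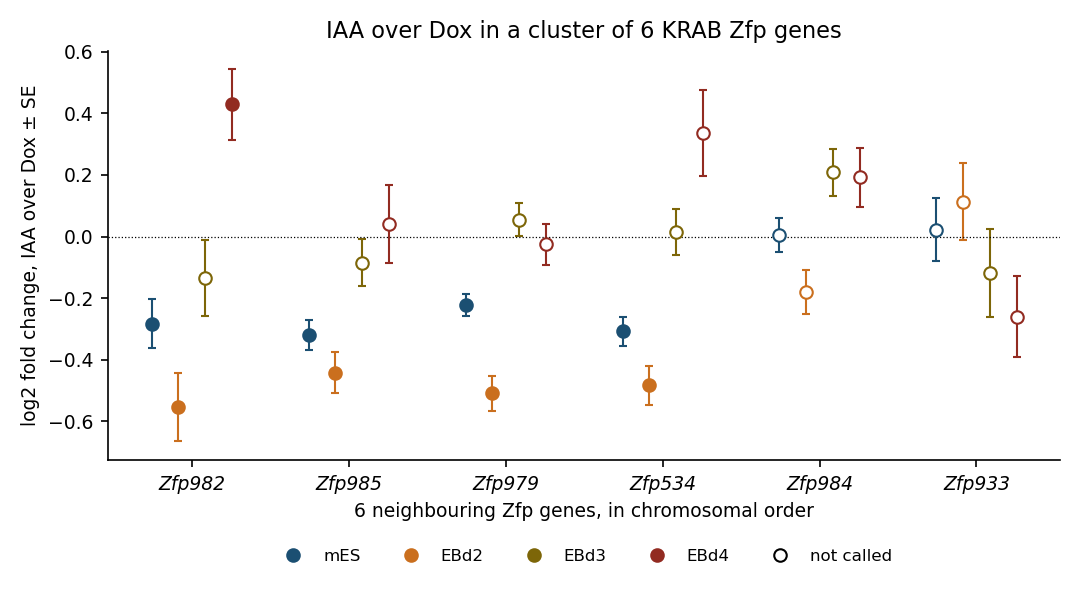
The vertical axis is the log2 difference of IAA over Dox with its SE for the 6 genes of the chromosome 4 block in each stage, and open symbols were not called. In mES and EBd2, 4 of the 6 are filled and lie below 0, none is filled in EBd3, and Zfp982 lies above 0 at 0.43 in EBd4.

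Differentiation alone, without IAA, was followed by setting each Dox embryoid body stage against Dox mES with one spread over 12 libraries. These contrasts share the mES Dox libraries. In Dox EBd2, 95 of 250 genes were higher and 85 lower than in Dox mES, beside 35.0% and 29.1% of all genes. In EBd3 95 were higher and 76 lower (31.5% and 28.6% of all genes), and in EBd4 104 and 85 (30.6% and 30.2%). A gene with a low mean enters the 250 partly through the stage in which it is high, so these counts are a description. Without the third EBd2 Dox library 89 were higher and 96 lower in EBd2, so the balance there turned.

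Zfp608, a relative of Zfp609, averaged 9.96 in Dox mES, 585 in EBd2, 675 in EBd3 and 684 in EBd4, with a log2 difference of 6.03 (SE 0.15) for Dox EBd4 over Dox mES. Zfp365 (log2 difference 5.81 in EBd2), Zfp467 (3.84 in EBd4), Zfp618 (3.77 in EBd4) and Zfp334 (2.60 in EBd4) also rose. Zfp57 fell, with means of 4848, 1303, 804 and 579.6 from Dox mES to Dox EBd4, and so did Zfp819 (-3.26 in EBd4) and Zfp296 (-3.01). In Dox cells Zfp57 was thus lower at each later stage. Zfp710 was lower by a like amount in each stage, at -2.87, -2.87 and -2.86. In EBd2, Zfp704 (-3.04), Zfp516 (-2.55) and Zfp59 (-2.36) were also lower.

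The classes differed in the share that was lower, a difference that was not tested. In Dox EBd2 over Dox mES 40 KRAB genes were higher and 51 lower (median log2 difference -0.06), and 55 genes without KRAB were higher and 33 lower (0.17). Without the third EBd2 Dox library the counts were 41 and 59 for KRAB genes and 48 and 36 for the others. In EBd4 the counts were 51 and 52 for KRAB genes and 53 and 32 for the others, where 30.6% of all genes were higher and 30.2% lower. The chromosome 4 block had 5 of 6 lower in EBd4, with Zfp534 (-1.89), Zfp985 (-1.62), Zfp982 (-1.02), Zfp979 (-0.74) and Zfp984 (-0.42) below 0 and Zfp933 at 0.21. Of the 10 chromatin adaptors 8 were higher in Dox EBd2 than in Dox mES and 2 were lower, beside 35.0% and 29.1% of all genes. Zfp532 (1.72) and Zfp592 (1.05) led the rises.

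Of 24 genes of the KRAB corepressor machinery, none of which is a Zfp gene, 11 rose and 5 fell with IAA in mES, beside 17.3% and 20.1% of all genes. For EBd2 the numbers were 7 and 4 (13.4% and 16.7% of all genes), for EBd3 1 and 2 (4.22% and 6.32%), and for EBd4 1 and 7 (4.69% and 5.57%). Trim28, the corepressor that KRAB domains bind, averaged 19196 ± 657 in mES IAA and 15373 ± 308 in mES Dox (SD, n = 3 each), with log2 differences of 0.32, 0.34 and 0.19 in mES, EBd2 and EBd3 and no call in EBd4 (0.15). Setdb1 (0.25), Dnmt1 (0.34) and Suv39h1 (0.45) also rose in mES, and Ehmt2 (-0.32), which encodes G9a, and the HP1 gene Cbx3 (-0.22) fell. In EBd4 Hdac1 (-0.24), Chd3 (-0.38) and Cbx3 (-0.21) were among the falls, and Mphosph8 was the rise (0.16). The limma adjusted p there was 0.0041 for Hdac1 and 0.0182 to 0.0464 for the other calls. Whether the calls of these genes held without single libraries was not examined.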

How the data were processed

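Total RNA of 24 libraries was sequenced. Per the submitters' processing notes, the tools were STAR 2.5.3a, featureCounts 1.5.2 and DESeq2, and the build was mm10; strandedness, annotation version and the treatment of multiply mapped reads are not given in the sources used here. The deposited values are a signal, read counts divided by a size factor per library, with the mean over 24 libraries and the authors' own log2 fold changes and standard errors, test statistic (a score) and p-value columns, which were deposited beside them and were not used for results. Dividing by each library's step gave whole reads for 100% of positive values within 1e-06.

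From these values, limma 3.58.1 (R 4.3.3, trend) was fitted to log2(value + 1), leaving out genes whose mean was under 1, and p-values were adjusted by Benjamini-Hochberg over all genes tested; a fold change on this scale understates that of low genes. Stage fits used 6 libraries, the Dox stages 12 and the interactions 24. Counting tests on the recovered reads were alternatives: edgeR 4.0.16 (quasi-likelihood) called 3856 genes up and 4076 down in mES, 3463 and 3217 for EBd2, 985 and 1316 for EBd3, 1086 and 1106 for EBd4, beside 3618 and 4203, 2954 and 3684, 899 and 1346, and 993 and 1180 with limma; DESeq2 1.42.0 called 2758 and 2784, 2541 and 2306, 556 and 739, and 803 and 667. The fit was tested on simulated data.

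The 250 genes, the role lists and the rule for naming genes were chosen with earlier results of these data known. Named genes were up to 8 each way per stage and 4 each way per Dox stage or interaction with the largest log2 difference among those called (with 20 or more normalized counts where the gene was higher, and libraries that did not overlap, except for interactions), those called in all 4 stages, and up to 4 per role list and stage. Role lists covered imprinting, retroelements, pluripotency, RNA, chromatin adaptors and development; others covered KRAB corepressors and cell type markers. KRAB boxes were to be read from RefSeq proteins; here GENCODE M21 coding sequences were translated and searched with a profile of 43 seed sequences (HMMER 3.4, E at most 1e-05). RefSeq promoters (GRCm38.p6) matched 207 members, 41 of them with several windows, of which the farthest upstream was taken. Of the 250 spans, 99 overlapped another gene, 20 of them one at 10% or more of the member's level. Spans include introns, and overlap of exons was not checked. Figures used matplotlib 3.10.9. Replicate numbers did not pair the libraries.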

Additional observations from a re-analysis of the deposited data

Results flagged for a closer look

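For 24 member values the IAA effect differed between an embryoid body stage and mES in the interaction test (limma, adjusted p below 0.05); the values are log2 effects in the embryoid body stage minus those in mES, and they were picked as the largest each way. In EBd2, the effect was higher for Zfp618 (2.10), Zfp423 (1.97), Zfp651 (1.35) and Zfp467 (1.12), and lower for Zfp57 (-0.93), Zfp941 (-0.65), Zfp516 (-0.61) and Zfp296 (-0.58). In EBd3 it was higher for Zfp618 (1.48), Zfp423 (1.43), Zfp651 (1.41) and Zfp365 (1.27), and lower for Zfp628 (-0.62), Zfp827 (-0.56), Zfp941 (-0.55) and Zfp787 (-0.52). In EBd4 it was higher for Zfp651 (1.48), Zfp618 (1.37), Zfp423 (1.25) and Zfp981 (0.82), and lower for Zfp428 (-0.69), Zfp426 (-0.62), Zfp111 (-0.59) and Zfp623 (-0.57). In Dox mES Zfp618 averaged 12.8 normalized counts, Zfp365 15.0 and Zfp467 8.73, so their differences lean on few reads. Those of Zfp651 do so too, as it was under 20 in mES IAA. Some of these calls were not made when 1 library was left out, namely for Zfp296 in EBd2 (10 of the 12 libraries, adjusted p up to 0.0969), for Zfp941 (7 libraries, up to 0.133), Zfp787 (7 libraries, up to 0.0977), Zfp365 (3 libraries, up to 0.0771) and Zfp628 (1 library, 0.0619) in EBd3.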

How the results depend on the processing

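No call of a named member turned its direction under any alternative run. Without one library each, members that rose or fell numbered 61 to 68 and 38 to 45 in mES, 32 to 69 and 34 to 48 in EBd2, 6 to 14 and 7 to 14 in EBd3, and 4 to 10 and 5 to 19 in EBd4. For Dox EBd2, EBd3 and EBd4 over Dox mES the ranges were 87 to 96 and 76 to 96, 89 to 100 and 71 to 79, and 95 to 104 and 75 to 88, and for the interactions 15 to 31 and 18 to 26, 9 to 19 and 5 to 14, and 16 to 23 and 22 to 42. DESeq2 gave 8 and 6 in EBd3, 7 falls in EBd4 and 1 gene down in all 4 stages. Reads thinned to the smallest total gave 8 rises in EBd3, 1 gene up in all 4 stages, and 48 rises and 59 falls in mES, which turned the balance, where reads thinned with the size factors kept, an alternative chosen after seeing the data, gave 66 and 43 and also 1 gene up in all 4 stages. The joint fit of 24 libraries gave 16 rises in EBd4 and 5 genes down in all 4 stages. Same-numbered libraries correlated at -0.18 to 0.094, and the replicate block gave 4 rises and 12 falls in EBd4 and 1 gene up in all 4 stages. With the block and with either thinning, Zfp317 remained there and Zfp346 did not. The cause of these shifts was not tested. Depth limits mES values of Zfp618, Zfp365, Zfp467 and Zfp608, which are under 20 normalized counts on average, and the mES IAA values of Zfp651, also under 20. Of the values of named members, 3310 kept direction and side of the threshold without one library, 223 lost the call and 43 gained one, and under the other settings the numbers were 4183, 138 and 59.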
